A study of Microtus ochrogaster with 2 samples.

Results

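The genes described here encode the classical axon guidance cues and their receptors, chosen by symbol in a table of prairie vole genes. They comprise the semaphorins of classes 3 to 7, ephrins, netrins and slits as ligands, and the plexins, neuropilins, Eph receptors, Unc5 proteins, Dcc and Robo proteins as receptors. The symbol pattern matched 71 protein-coding genes, and 53 of them had a position that could be set against the peak list: 25 of 35 ligands, 26 of 34 receptors, and Unc50 and Unc5cl, which the pattern matched but which are neither guidance ligands nor receptors. The 18 not placed, and not analysed in the comparisons, were the ligands Efna1, Efna3, Efna4, Efnb2, Ntn5, Sema4d, Sema4f, Sema6d, Sema7a and Slit2 and the receptors Ephb1, Ephb3, Ephb4, Plxna1, Plxna3, Plxna4, Plxnb3 and Plxnd1. In all, 13975 of 20077 protein-coding genes could be placed in this way. The data were 1 list of H3K4me1 peaks, regions that an antibody against this mark enriched over input DNA. The tissue was retrosplenial cortex, a midline area of the cerebral cortex, from male prairie voles (Microtus ochrogaster) of 30 to 40 days, and no treatment is labelled. There was 1 ChIP library (37430265 fragments after filtering) and 1 input library (47554684). The series names 8 males without stating how they were divided between, or pooled within, the libraries.

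H3K4me1, a single methyl group on lysine 4 of histone H3, marks enhancers and the flanks of active promoters. Guidance cues steer growing axons by attraction or repulsion: semaphorins act through plexins, with neuropilins as partners for most secreted class 3 members, ephrins bind Eph receptor kinases on neighbouring cells, netrins attract through Dcc and repel through Unc5 proteins, and slits repel through Robo proteins. In the maturing cortex many of the same proteins act on dendritic spines, synapses and vessels. No expression was measured, so a peak shows the mark and not the activity of a gene. The tissue was a mixture of neurons, glia and vessel cells, in which a mark carried by few cells and a weak mark in many cells cannot be told apart.

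A gene's locus was taken as the gene with 5 kb on each side, and it had a peak when at least 1 base of a listed peak overlapped it. A gene without a peak is one where no region passed the caller's q cutoff of 0.05. Neither library was replicated, so no test was made and each value stands for this peak list. The 95% Wilson intervals on shares cover counting error only and not the spread between animals.

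A larger share of receptor than of ligand loci carried a peak, by a difference within counting error, and receptor loci were also longer. Of the 26 receptors 21 carried at least 1 peak (80.8%, interval 62.1 to 91.5%), and of the 25 ligands 16 did (64.0%, 44.5 to 79.8%). Among all placed genes the share was 46.0%. The difference of 16.8 percentage points between receptors and ligands had an interval of -7.64 to 39.0, which includes 0. The median receptor locus was 138 kb long, the median ligand locus 53.2 kb and the median locus of all genes 28.0 kb. Among loci of 30 kb or more the difference was -0.303 percentage points, with a peak at 19 of 22 receptors and 13 of 15 ligands.

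Within each class of locus length, the intervals of both groups included the share of all genes. Under 30 kb, 3 of 10 ligands and 2 of 4 receptors carried a peak, against 29.2% of all genes of that length. Between 30 and 100 kb, 3 of 3 ligands and 4 of 7 receptors did, against 57.7%. Over 100 kb, 10 of 12 ligands and 15 of 15 receptors did, against 81.8%. The intervals of the ligand and receptor shares overlapped in every class, and each class held few members.

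**Figure D1:**
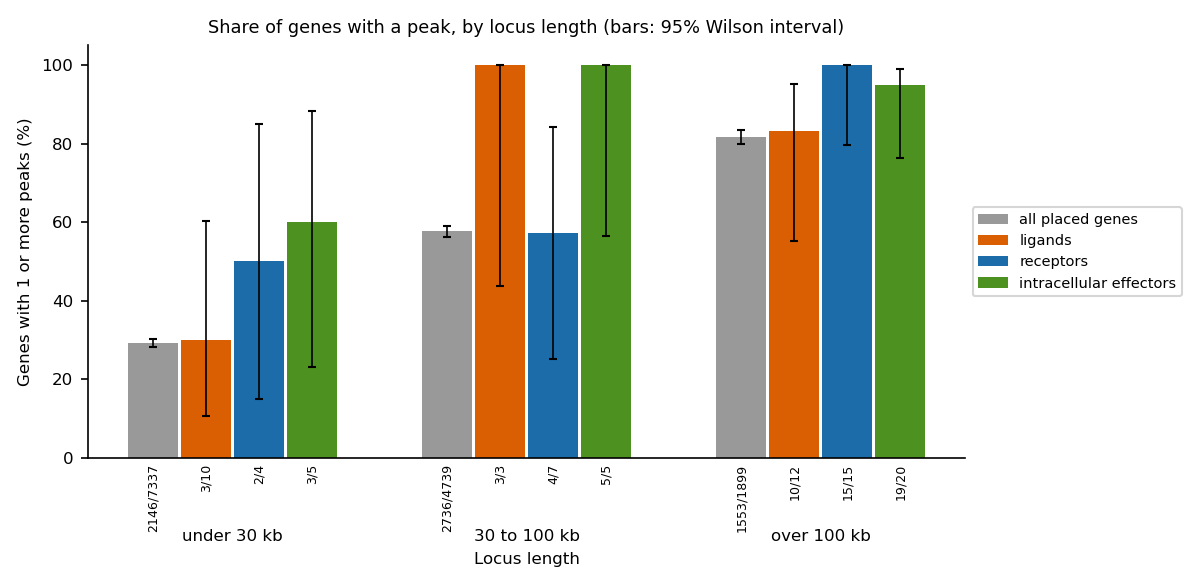
Bars show the percent of genes with 1 or more H3K4me1 peaks in 3 classes of locus length, for all placed genes, ligands, receptors and the intracellular effectors described further on. Lines are 95% Wilson intervals, and the fractions give genes with a peak over all genes. Over 100 kb, 10 of 12 ligands and 15 of 15 receptors carried a peak, against 81.8% of all genes.

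Measured per length, receptors and ligands differed within counting error, and the density of both was below that of all loci. Receptor loci held 168 peaks, or 0.233 per 10 kb of summed locus, and ligand loci 64 peaks, or 0.197 per 10 kb. Their ratio was 1.19 (exact interval 0.884 to 1.61), and 1.02 with Sema6d, which could be placed less surely, counted as a ligand. The exact interval takes peaks as independent, but they cluster within genes, with 12 of 19 Plxna2 peaks in 46.0 kb. It may therefore be too narrow for a comparison of genes. Loci of all genes held 0.269 peaks per 10 kb. Between 30 and 100 kb the densities were 0.316 for 3 ligands, 0.284 for 7 receptors and 0.258 for all genes. Under 30 kb they were 0.187, 0.194 and 0.252, and over 100 kb 0.192, 0.231 and 0.279. Loci over 100 kb held 56 of the ligand and 156 of the receptor peaks. No interval is given for the comparison with all genes. The median percent of a locus covered by peaks was 0.887% for receptors and 0.623% for ligands, against 0% for all genes, of which 7540 had no peak. The difference between receptors and ligands, 0.264 percentage points, had an interval of -0.690 to 1.80, which includes 0. In loci over 100 kb the medians were 0.890% for 15 receptors, 0.682% for 12 ligands and 0.925% for 1899 genes.

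Of the ligands 4 of 25 (16.0%, interval 6.40 to 34.7%) and of the receptors 5 of 26 (19.2%, 8.51 to 37.9%) had a coverage above the 75th percentile of all genes in the same class, a limit passed by 25% of all genes, which lies within both intervals. The ligands were Sema4c, Sema6a, Sema3f and Efnb3, and the receptors Plxna2, Epha7, Plxnb2, Unc5a and Robo3. In loci over 100 kb, 5 or more peaks were found at 12 of 15 receptors (80.0%) and 4 of 12 ligands (33.3%), against 43.6% of all genes. The 15 receptors over 100 kb had a median locus of 299 kb, the 12 ligands 200.02 kb and all genes of the class 163 kb.

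**Figure D2:**
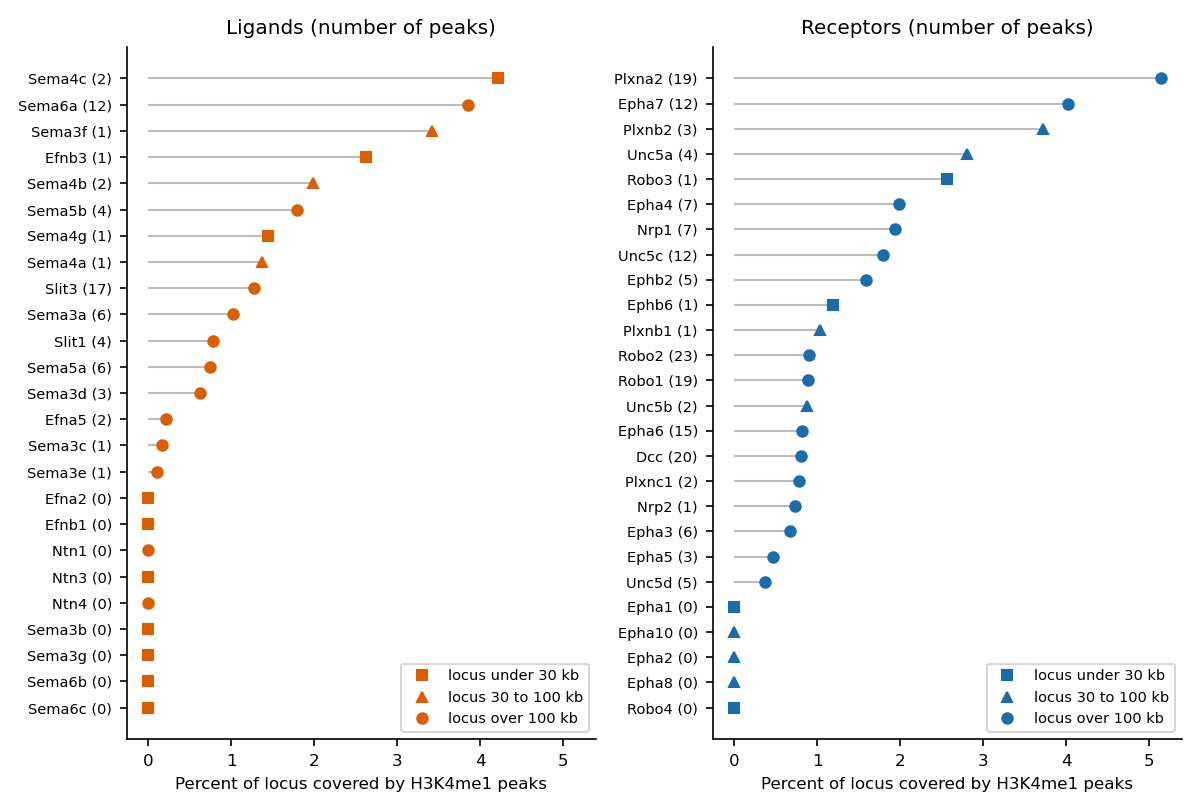
Each point gives the percent of 1 gene's locus that H3K4me1 peaks cover, with the number of peaks after the gene name, for 25 ligands (left) and 26 receptors (right). Marker shapes give the class of locus length. Plxna2 leads the receptors with 5.14% and Sema4c the ligands with 4.22%, and 9 ligands and 5 receptors stand at 0.

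Among the semaphorins, the largest family of ligands, 12 of 16 carried a peak, against 46.0% of all genes. By locus length the share of all genes was 29.2% under 30 kb, 57.7% at 30 to 100 kb and 81.8% over 100 kb. The class 4 to 6 members, which span the membrane, had a median coverage of 1.45% and 0.315 peaks per 10 kb. Sema6a alone held 12 of their 28 peaks. The secreted class 3 members had a median of 0.163% and 0.129 peaks per 10 kb. All genes held 0.269 per 10 kb. The classes also differed in length, with a median locus of 35.7 kb for class 4 to 6 and 164 kb for class 3. Each of the 4 class 4 members placed carried a peak, while 2 of 3 class 6 members, Sema6b and Sema6c, carried none.

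Sema6a, a transmembrane cue that binds A-type plexins in mouse, had the densest mark among the long ligand genes. Its 135 kb locus held 12 peaks over 3.85% of its length, and 11.9% of genes over 100 kb had a higher coverage. Its strongest peak, on chromosome 18 (35029918 to 35030701), was the ligand peak of highest fold, with 31 fragments at its summit and 4.26-fold enrichment over the caller's background, the authors' own value, and its midpoint was 3.57 kb from an end of the gene. A run of 6 further peaks lay together on chromosome 18 (34969531 to 35007609), between 26.6 and 61.8 kb from the nearer end.

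Sema4c, a ligand of B-type plexins, had 2 peaks over 4.22% of a 21.8 kb locus, the highest coverage of any ligand. The peak at its end, on chromosome LG2 (21704391 to 21704968), had its midpoint 0.504 kb inside the gene. Sema3f, a secreted repellent that acts through neuropilin 2, had a single peak, but at 1295 bp on chromosome 5 (80565520 to 80566814) it was the widest of any ligand and covered 3.42% of the locus, at 3.70-fold. Sema4b had 2 peaks over 1.98% and Sema4a 1 over 1.37%. Sema4g also had 1, over 1.45%, but its midpoint lay 3.89 kb outside the gene and inside Twnk, a neighbour encoding the mitochondrial DNA helicase.

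The class 5 semaphorins, which carry thrombospondin repeats outside the cell, differed in spacing. Sema5b held 4 peaks over 1.79% of a 130 kb locus, all within 35.3 kb, with a best fold of 3.76 on chromosome 2 (44917736 to 44918302). Sema5a held 6 peaks over 0.741% of a 440 kb locus, and its longest stretch of gene without a peak midpoint was 146 kb.

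The long class 3 semaphorin genes differed in coverage. Sema3a, the best studied repellent of cortical axons, held 6 peaks over 1.02% of a 219 kb locus, with folds up to 2.77, and 47.3% of genes over 100 kb had a higher coverage. Sema3d held 3 over 0.623% of 209 kb, Sema3c 1 over 0.163% of 164 kb and Sema3e 1 over 0.106% of 258 kb. Sema3e thus had 233 kb of gene without a peak midpoint, and 80.8% of genes over 100 kb had a higher coverage. These 4 genes all lie on chromosome 26, where the whole sequence carried 13.7 peaks per Mb against a median of 16.4 (range 1.003 to 21.8) over the 28 sequences used. The short genes Sema3b and Sema3g carried no peak, although the nearest peak to the Sema3b locus was 0.225 kb beyond its border and that to Sema3g 14.2 kb.

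The plexin and neuropilin receptors of these cues carried a peak at 6 of 6 loci, of median length 138 kb. Among all genes 46.0% did, and 81.8% of those over 100 kb. The 6 loci held 33 peaks, or 0.458 per 10 kb, against 0.269 for all genes, and 19 of the 33 were in Plxna2. Plxna2, which binds Sema6a and, with neuropilins, class 3 semaphorins, had the highest coverage of all members. Its 214 kb locus held 19 peaks over 10994 bp (5.14%), and 7.21% of genes over 100 kb were covered more. Of these peaks 12 lay on chromosome 6 (80697411 to 80743440), a stretch of 46.0 kb beginning 39.5 kb from the nearer gene end. The strongest, at 80741127 to 80742646, was the widest peak of any member at 1520 bp and had 4.01-fold enrichment.

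Plxnb2, a receptor of class 4 semaphorins, had 3 peaks over 3.72% of a 35.3 kb locus, with folds from 2.63 to 3.31. Plxnb1, a receptor of the same type and nearly the same locus length, had 1 peak over 1.03%, with 2.11-fold enrichment and its midpoint 0.809 kb outside the gene. Plxnc1, the receptor of Sema7a, had 2 over 0.789% of 160 kb. The neuropilins differed too. Nrp1 held 7 peaks over 1.94% of 150 kb, all on chromosome 4 (35844597 to 35893440), leaving the other 85.7 kb of the gene without a peak midpoint. Nrp2 held 1 peak of 926 bp over 0.735% of 126 kb, with 3.42-fold enrichment.

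**Figure D3:**
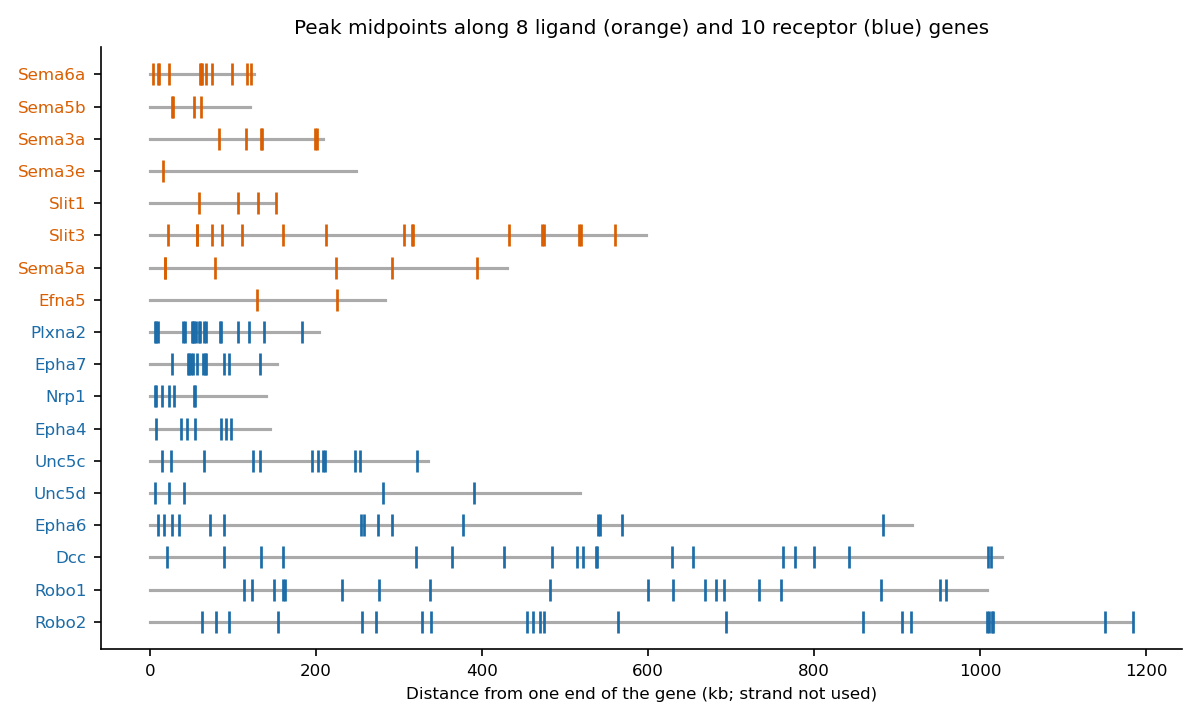
Ticks mark H3K4me1 peak midpoints along 8 ligand genes (orange names) and 10 receptor genes (blue names). Grey lines are the genes, drawn to scale in kb from the end with the lower coordinate, and strand was not used. Plxna2 has 12 of 19 peaks within 46.0 kb and Nrp1 7 of 7 within 48.8 kb, while the peaks of Dcc, Robo1 and Robo2 are spread along about 1 Mb.

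Ephrins and Eph receptors were unevenly marked. Of the 4 ephrins placed, 2 carried a peak, against 46.0% of all genes, 29.2% of those under 30 kb and 81.8% over 100 kb. Efnb3, a transmembrane ephrin that forms a midline barrier to axons in the mouse spinal cord, had 1 peak of 427 bp over 2.62% of a 16.3 kb locus, with its midpoint 1.39 kb outside the gene. Efna5, a lipid-anchored ephrin that patterns cortical maps, had 2 over 0.212% of 293 kb, at 3.32-fold and 3.46-fold. Efna2 had none, and the nearest peak was 2.15 kb beyond its locus. Efnb1 had none within 118 kb of its locus, on the X, which carried 62 peaks in all or 1.003 per Mb.

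Of the 11 Eph receptors 7 carried a peak, against 46.0% of all genes. The loci of these 7 exceed 100 kb, where 81.8% of all genes carried a peak, except that of Ephb6. Epha7, a receptor of A-type ephrins, was the most densely marked, with 12 peaks over 4.02% of a 163 kb locus. Of its peaks 10 lay on chromosome LG5 (27469674 to 27519825), more than 45 kb from either end of the gene. Epha4, which binds ephrins of both types, held 7 peaks over 1.99% of 155 kb, of which 3 had folds of 3.60 or 3.76. The other long A-type receptors were covered less: Epha6 held 15 peaks over 0.821% of 928 kb, Epha3 6 over 0.677% of 314 kb and Epha5 3 over 0.475% of 299 kb. Epha6 had a stretch of 314 kb of gene with no peak midpoint.

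Among B-type receptors, Ephb2, which acts at excitatory synapses, held 5 peaks over 1.59% of 126 kb, 4 of them within 16.7 kb on chromosome 10 (48073722 to 48090436). Ephb6, a receptor without kinase activity, held 1 of 315 bp over 1.19%. Epha1, Epha2, Epha8 and Epha10 carried none, with the nearest peak 275, 97.3, 49.9 and 14.3 kb beyond their loci. These loci were 26.9, 36.2, 52.4 and 48.4 kb long. Of all genes, 29.2% under 30 kb and 57.7% between 30 and 100 kb carried a peak. Ephb6 and Epha1 lie on linkage group LG12, where the positions of peaks and genes could not be shown to match.

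Netrins carried no peak at any of the 3 loci placed, and their receptors carried one at 5 of 5. Ntn1, the founding attractant, had no peak in a 191 kb locus, and the nearest lay 92.2 kb beyond it. Ntn4, a laminin-binding netrin, had none in 110 kb, with the nearest 31.3 kb away, and Ntn3 had none in 13.2 kb, with the nearest 0.429 kb away. Over 100 kb, 81.8% of genes carried a peak, and Ntn1 and Ntn4 were the only ligands of that length that did not.

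Dcc, the attractive netrin receptor, held 20 peaks over 0.807% of a 1036 kb locus, spread along the gene with folds up to 3.59. Unc5a had the densest mark of the repulsive receptors, with 4 peaks over 2.80% of 66.3 kb, 3 of them on chromosome 16 between 55879462 and 55882159. Unc5c held 12 over 1.80% of 345 kb, among them a peak of 1352 bp with 3.87-fold enrichment on chromosome 21 (35397042 to 35398393). Unc5b held 2 over 0.884% of 77.7 kb, and Unc5d 5 over 0.372% of 527 kb, the lowest coverage of any receptor with a peak.

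Slits and Robo receptors carried peaks at 2 of 2 and 3 of 4 loci, against 46.0% of all genes. The loci of Slit1, Slit3, Robo1 and Robo2 exceed 100 kb, where 81.8% of all genes carried a peak. Those of Robo3 and Robo4 are under 30 kb, where 29.2% did. Slit3 held 17 peaks over 1.27% of 607 kb, the most of any ligand, and Slit1 4 over 0.787% of 159 kb. Robo2 held 23 peaks, the most of all members, over 0.909% of 1193 kb, and Robo1 19 over 0.891% of 1018 kb. One Robo2 peak, on chromosome 2 (76232353 to 76232822), had 169 fragments but only 2.42-fold enrichment, over a local background of 69.3 fragments, and it was the only member peak with a background above 5 times the lowest. Robo3, which in mammals does not bind slits, held 1 peak over 2.56% of 27.6 kb, and its neighbour Robo4, a receptor of endothelial cells, held none.

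**Figure D4:**
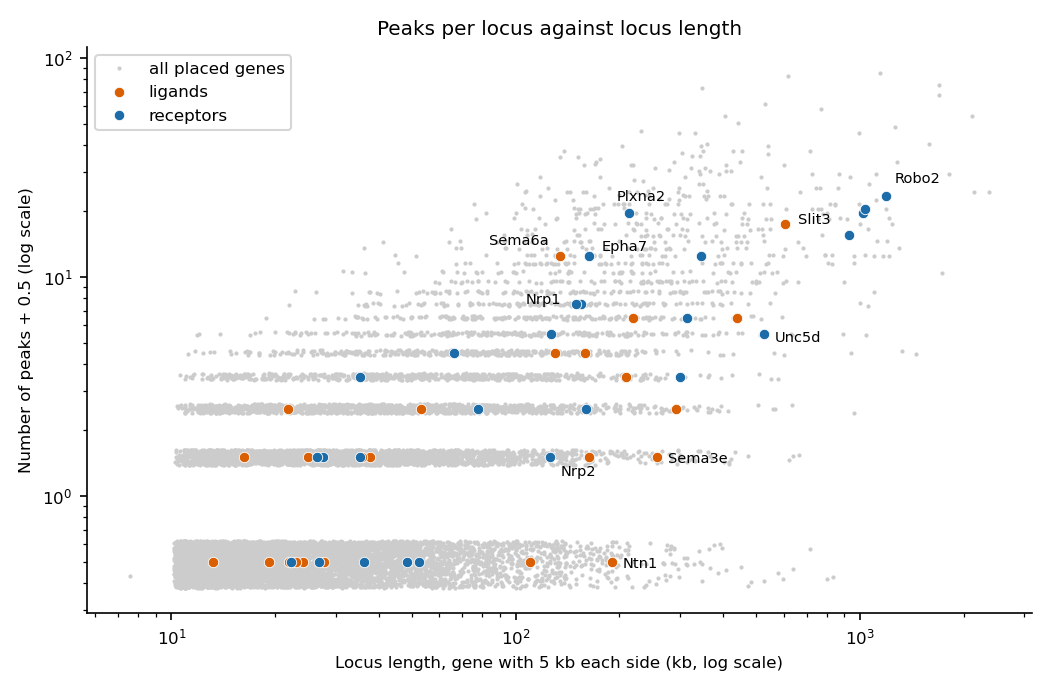
Each point is a gene, placed by its locus length (kb, log scale) and its number of H3K4me1 peaks plus 0.5 (log scale), with all placed genes in grey, jittered vertically, ligands in orange and receptors in blue. Plxna2, Sema6a and Epha7 lie high for their length with 19, 12 and 12 peaks, and Sema3e, Nrp2 and Ntn1 low with 1, 1 and 0.

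Sorted by how the ligand is released, the 12 secreted ligands (class 3 semaphorins, netrins and slits) held 0.164 peaks per 10 kb and the 13 membrane-bound ones 0.249. Their shares with a peak were 58.3% (interval 32.0 to 80.7%) and 69.2% (42.4 to 87.3%), so the intervals overlapped widely. The share of all genes was 46.0%, with 29.2% under 30 kb and 81.8% over 100 kb. The median locus was 161 kb for secreted and 27.7 kb for membrane-bound ligands. Sema6a held 12 of the 31 peaks of the membrane-bound ligands. Unc50, a Golgi protein gene outside the guidance pathways, had 2 peaks over 5.53% of 20.1 kb, and Unc5cl, related in sequence to the Unc5 receptors, had none. Neither counted as a ligand or a receptor.

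Member peaks lay mostly inside the genes, which also make up most of each locus. Of the ligand peaks 61 of 64 and of the receptor peaks 165 of 168 had their midpoints in the gene body (95.3% and 98.2%), where gene bodies made up 92.3% and 96.4% of the summed loci. No peak belonged to more than 1 member. The median fold was 2.77 for ligand and 2.77 for receptor peaks, against 2.85 for the 27022 peaks on the sequences used. Median width was 391.5 bp for ligands, 423 bp for receptors and 432 bp for all. Peaks of at least 4-fold numbered 1 among ligands and 1 among receptors, or 1.56% and 0.595%, against 2.92% of all. Peaks of 1 kb or wider made up 3.13% and 2.98%, against 8.22%.

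The local background under ligand peaks was often at the caller's lowest value. It stood within 0.01 of 6.23 fragments at 44 of 64 ligand peaks (68.8%), at 52 of 168 receptor peaks (31.0%) and at 34.4% of all peaks used, and at such peaks the fold rests on that general floor rather than on local input. In genes with loci over 100 kb, only peaks with midpoints inside the gene were counted by distance to a gene end. Those within 10 kb of an end were 7 of 55 for ligands (12.7%) and 9 of 154 for receptors (5.84%), against 9.93% for all genes. Stretches within 10 kb of an end made up 8.59%, 4.54% and 8.94% of the respective gene lengths.

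Other genes of the guidance pathways were put on lists by role, and the intracellular effectors had a higher median coverage than the ligands and receptors. Of 30 intracellular effectors placed (of 42 listed) 27 carried a peak (90%, interval 74.4 to 96.5%), against 46.0% of all genes. Over 100 kb 19 of 20 effectors did (95%, 76.4 to 99.1%), an interval that includes the 81.8% of all genes of that length. The effectors held 310 peaks, 82 of them in Kalrn and 45 in Trio. This was 0.635 per 10 kb, against 0.269 for all genes, with a median coverage of 2.40%. Above the 75th percentile of their length class stood 17 (56.7%), against 25% of all genes. Dpysl2, which links semaphorin signals to microtubules, held 20 peaks over 15.3% of its locus. Trio and Kalrn, guanine nucleotide exchange factors, held 45 over 9.04% and 82 over 8.32%. Fyn, a kinase used by several guidance receptors, held 21 over 8.69%, and Mical2, an enzyme that oxidises actin, 16 over 7.25%. Dpysl3, Mical1 and Vav2 carried none.

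Of 14 further cues, receptors and adhesion partners placed (of 22 listed) 11 carried a peak (78.6%, interval 52.4 to 92.4%), against 46.0% of all genes. Over 100 kb 5 of 6 did, against 81.8% of all genes of that length. The list held 106 peaks, of which Dscaml1 held 35, Nfasc 20 and Nrcam 18. This was 0.595 per 10 kb, with a median coverage of 1.87%. Nfasc, an adhesion protein of the axon initial segment, held 20 peaks over 8.00% of its locus. Flrt2, a ligand of Unc5 receptors, held 11 over 6.26%, Dscaml1, an immunoglobulin-type adhesion molecule, 35 over 5.54%, Rgmb, a ligand of the netrin receptor neogenin, 3 over 3.80% and Nrcam, an adhesion partner of neuropilins, 18 over 3.63%. Draxin, Met and Rgma carried none. Median locus length was 133 kb for the effectors and 93.3 kb for this list, and in loci over 100 kb 11 of 20 effectors stood above the 75th percentile of the class, against 1 of 12 ligands and 2 of 15 receptors. Between 30 and 100 kb the 7 further cues, receptors and partners had a median coverage of 1.10% and 0.279 peaks per 10 kb, against 1.20% and 0.293 for the 10 ligands and receptors of that length. Over 100 kb they were 6 genes, with a median of 4.58%, against 0.807% for 27 ligands and receptors. No test was made between the lists.

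Markers of the tissue were checked in the same way. Peaks lay at 3 of 4 neuronal markers placed (Camk2a, Rbfox3, Syt1, not Gad1), at 2 of 3 of astrocytes, 3 of 3 of oligodendrocytes, 1 of 3 of microglia and 3 of 4 of retrosplenial cortex (Etv1, Nr4a2 and Tshz2, not Cxcl14), and not at Cdh5, the 1 endothelial marker placed. Of all placed genes 46.0% carried a peak, and of those over 100 kb 81.8% did. The marker counts took no account of locus length. The part of each cell type in the mark at guidance genes was not tested.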

How the data were processed

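The deposited file is 1 peak list from 1 H3K4me1 ChIP library against 1 input library. Per the file headers, peaks were called by the authors with MACS 2.0.10.20131216 on paired-end fragments, at q below 0.05, for a fragment size of 256 bp and a mappable genome of 1.89e+09, keeping 1 duplicate and scaling the larger library down. BWA 0.7.12 and SAMtools 0.1.19 stand in the submitters' processing notes, while header paths name Stampy, so the aligner is uncertain. The signal deposited per peak is the pileup of ChIP fragments at the summit, fold enrichment is the authors' ratio of pileup to local background, and −log10 p and −log10 q are the caller's values as deposited. They serve here to describe and filter single peaks. The background of a peak was computed from pileup and fold with the caller's pseudocount of 1.

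No build is named for the peak list. Gene symbols and positions came from RefSeq for MicOch1.0, without strand. Sequence names matched, and bands 1 to 2.5 kb off gene ends held 2470 peaks as listed, but 1199 to 1371 once peaks were moved by 20 to 200 kb (8 shifts). The listed positions gave the top count on 26 of 28 sequences, not on LG12 and X. Genes on unplaced sequences (16 members), chromosome 14 (2 members) and chromosome 6 below 20 Mb were not analysed. Counts, medians and Wilson or exact binomial intervals were computed with Python 3.11.15, SciPy 1.17.1 and pandas 2.3.3. The interval for the difference of shares joins both Wilson intervals. That for the difference of medians subtracts opposite ends of the separate median intervals. The overlap count was checked on simulated peaks. Peak positions are as deposited, counted from 1.

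The members, lists and length classes were chosen with earlier results of these data known. Genes are named by a rule: per role, the 12 of highest coverage, and 5 each by highest fold, most peaks and longest locus without a peak, and the 5 of highest coverage in each further list. The remaining members with a peak, and the short ones without, were named after their values were seen. Alternatives varied flank, peak strength, overlap, background and locus length.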

Additional observations from a re-analysis of the deposited data

Results flagged for a closer look

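Sema6d, a transmembrane semaphorin that binds A-type plexins, lies on chromosome 14, which is in 3 pieces in the peak list and entered no comparison. Only 1 of the pieces reaches its position, by the furthest peak on each. On that piece its 523 kb locus held 22 peaks over 2.53% of its length, with folds up to 4.15 and 21 midpoints inside the gene. Among genes over 100 kb 20.6% had a higher coverage. Counted as a ligand, it takes the ligand density from 0.197 to 0.228 peaks per 10 kb and the ratio of receptors to ligands from 1.19 to 1.02. It stands here because it carries signal outside the comparisons, and whether its position is right was not tested.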

How the results depend on the processing

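Over 10 settings, 62 alternative values were computed, of which 56 kept their direction and stayed within the interval or within 1.5 times the count, 3 moved and 3 turned. Of the settings 3 (Unc50 and Unc5cl counted as receptors, Sema6d added, X genes left out; 15 values) were chosen after seeing the data. The excess of receptors over ligands in percent with a peak turned to -3.54 percentage points with 50 kb flanks, where 23 of 25 ligands and 23 of 26 receptors carried a peak, and to -0.303 in loci of 30 kb or more, and ranged up to 25.7. With the 25% of peaks of highest fold, ligands with a peak fell to 8 (receptors to 15) and 53.3% of effectors carried one, in a smaller peak set. The ratio of peaks per 10 kb was 0.994 there, against 1.16 with the 50% of peaks of higher q rank, and the cause was not tested. With Sema6d it was 1.02. With 50 kb flanks 100% of effectors did. The difference in median coverage stayed between 0.0683 and 0.690 percentage points, but its interval in the main setting (-0.690 to 1.80) includes 0. The planned run with genes on unplaced sequences was not made, because the gene table gives them no sequence name. No paired analysis was possible because each group has 1 sample. With 1 library of each kind and at most 26 members a role, the differences between ligands and receptors in share with a peak and in peaks per 10 kb lay within counting error.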

Other observations

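Several long members share a chromosome. On chromosome 2, Robo1, Robo2, Epha3 and Epha6 held 63 peaks in 3452 kb of summed locus, or 0.182 per 10 kb, with coverages between 0.677% and 0.909%. The whole chromosome had the same density, 18.2 peaks per Mb. On chromosome 26, Sema3a, Sema3c, Sema3d and Sema3e held 11 peaks in 850 kb, or 0.129 per 10 kb, with coverages between 0.106% and 1.02%. Both groups were chosen after their values were seen, and no explanation was tested.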
